A study of Schizosaccharomyces pombe with 12 samples.

Results

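Fission yeast (Schizosaccharomyces pombe) cells without Thc1 were set directly against cells without Bmc1, the 6 of the 12 libraries of the series that come from deletion strains. The thc1Δ strain is h-, carries leu1-32, ura4-D18, his3-D1 and ade6-M216, had its thc1 coding sequence exchanged for his3, and was obtained by transformation of a haploid laboratory strain. The bmc1Δ strain is h+, carries leu1-32, ura4-D18, his3-D1 and an ade6 allele given as M210 or M216, had its bmc1 coding sequence exchanged for natMX6, a drug resistance cassette, and descends from a sporulated diploid. Each group held 3 cultures of 1 strain in log phase, grown at 32 °C in 250 ml, and total RNA was sequenced after removal of ribosomal RNA. Because mating type, marker and descent differ along with the deleted gene, their parts in a difference between the strains cannot be told apart in these 6 libraries. The 6 libraries of the h- and the h+ wild type, which carry neither deletion, were used for context only and share no library with the comparison. The p values measure the spread between cultures of 1 strain per deletion.

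Telomerase is the enzyme that copies a template within its own RNA subunit onto chromosome ends. In fission yeast that RNA is TER1, a non-coding transcript whose mature form ends at a spliceosomal cleavage site and is held by the Lsm2-8 ring with the La-related protein Pof8. Thc1 and Bmc1 are both partners of Pof8: Thc1 resembles cap-binding proteins, and Bmc1 belongs to the Bin3/MePCE family, whose human member puts a methyl cap on the 7SK and U6 RNAs. The question put to the data was which transcripts and which classes of transcript differ between the loss of one partner and the loss of the other.

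The deposited values were counts of reads on 7004 genes. Counts summed to between 35165252 and 37231236 in thc1Δ libraries and to between 33565122 and 36016033 in bmc1Δ libraries, and 6232 genes had enough counts to be tested. Levels are given in CPM, which sets each count against the total of its library, adjusted by TMM, and log2 fold changes are thc1Δ over bmc1Δ with the standard error of edgeR's quasi-likelihood test and p values adjusted by Benjamini and Hochberg over all genes tested. CPM carries no correction for gene length, so no level of one gene is compared with that of another. Called genes are those with an adjusted p below 0.05 and a fold of 2 or more in either direction. The first replicate of each strain lay apart from the other two: over genes with at least 20 counts in a pair, the chi-square per degree of freedom was 68.9 and 65.5 between thc1Δ replicate 1 and the others, against 20.8 between replicates 2 and 3. In bmc1Δ the values were 34.4 and 39.6, against 6.75. Every pair therefore differed by more than counting noise, and all 6 libraries were kept as separate samples.

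Each deleted gene was lower in its own strain, but neither was at 0. Counts on thc1 came to 21.0, 20.8 and 19.7 CPM in thc1Δ cells, against 50.1, 50.6 and 52.5 CPM in bmc1Δ cells, a log2 fold change of -1.32 ± 0.049 (SE, edgeR adjusted p = 5.52e-05). Counts on bmc1 came to 28.7, 25.5 and 23.2 CPM in thc1Δ cells, against 15.4, 16.5 and 15.4 CPM in bmc1Δ cells, a log2 fold change of 0.71 ± 0.089 (edgeR adjusted p = 0.00607). The groups did not overlap for either gene, each in the direction of its label. Which parts of the 2 gene models still collected reads was not analysed here. The his3 gene, which encodes a histidine synthesis enzyme and marks the thc1 deletion, stood at 49.5, 41.5 and 43.6 CPM in thc1Δ cells, against 19.7, 19.2 and 17.9 CPM in bmc1Δ cells (log2 fold change 1.24 ± 0.079, edgeR adjusted p = 0.000529). The wild types, both his3-D1 as well, had 17.1 to 18.3 CPM (h-) and 18.8 to 20.4 CPM (h+) on his3. The ura4 gene, deleted in both backgrounds, had 0 counts in 5 of the 6 libraries and 1 count in thc1Δ replicate 3. The marker genes leu1 and ade6, which carry mutant alleles, had log2 fold changes of -0.096 and -0.11 and did not pass (adjusted p = 0.259 and 0.342).

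The telomerase RNA was lower in cells without Thc1 than in cells without Bmc1. TER1 stood at 58.0, 50.2 and 55.5 CPM in thc1Δ cells, against 86.6, 82.2 and 83.0 CPM in bmc1Δ cells. The highest thc1Δ library lay well below the lowest bmc1Δ library. The means were 54.5 ± 3.98 CPM in thc1Δ cells and 83.9 ± 2.32 CPM in bmc1Δ cells (SD, n = 3 each), and the log2 fold change was -0.62 ± 0.059 (edgeR adjusted p = 0.00228), which is under the 2-fold limit, so that TER1 was not among the called genes. An exact two-sided permutation test of the 6 CPM values gave p = 0.1, the smallest that 3 libraries against 3 allow. The adjusted p stayed below 0.05 without any single library, with log2 fold changes of -0.67 to -0.56. In the wild types TER1 had 151 to 159 CPM (h-) and 147 to 159 CPM (h+), a log2 difference of 0.033 (adjusted p = 0.644), so that both deletion strains had less of the RNA than either wild type. Because counts were made per gene, precursor, spliced and mature TER1 are summed here and cannot be told apart.

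**Figure D1:**
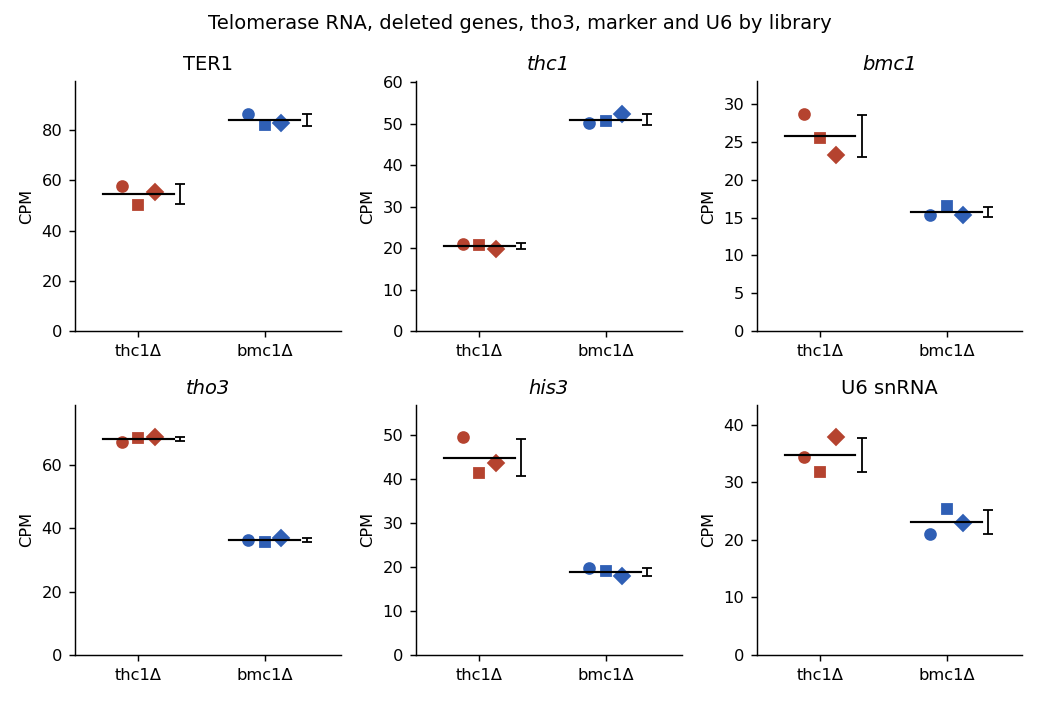
CPM of TER1, thc1, bmc1, tho3, his3 and U6 snRNA in each library, thc1Δ left and bmc1Δ right, with circles, squares and diamonds for replicates 1 to 3. Horizontal lines are means and bars 1 SD (n = 3). The 3 thc1Δ libraries lie at 50.2 to 58.0 CPM for TER1, below all bmc1Δ libraries, and above them for bmc1, tho3, his3 and U6.

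Apart from the deleted genes, transcripts for proteins that work with TER1 differed little. Protein levels were not measured here. Of the 14 genes of the telomerase list, TER1, thc1 and bmc1 were the ones that passed an adjusted p of 0.05. The gene for the catalytic subunit, trt1, had 101, 96.1 and 94.3 CPM in thc1Δ cells, against 88.6, 93.6 and 90.4 CPM in bmc1Δ cells (log2 fold change 0.097 ± 0.045, adjusted p = 0.189). The group means of trt1 were 97.2 CPM in thc1Δ cells and 90.9 CPM in bmc1Δ cells, and the groups did not overlap. For pof8 the log2 fold change was 0.095 (adjusted p = 0.248) and for lsm4, a subunit of the Lsm2-8 ring, 0.0085 (adjusted p = 0.939). None of the 7 Sm ring genes tested and none of the 9 genes for shelterin and other telomere capping proteins passed, with median log2 fold changes of 0.084 and -0.0080, beside -0.0043 over all genes tested. The log2 fold change of smb1, a subunit of the Sm ring, was 0.13 (adjusted p = 0.15).

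Among the small nuclear RNAs, the RNA cores of the spliceosome, U6, U1 and U4 were higher in thc1Δ cells. U6 had 34.4, 31.9 and 37.8 CPM in thc1Δ cells, against 21.0, 25.3 and 22.8 CPM in bmc1Δ cells (log2 fold change 0.59 ± 0.089, edgeR adjusted p = 0.0114). U6 is the RNA that MePCE caps in mammals. U1, which recognises the 5′ splice site, had 16.7, 15.7 and 18.4 CPM in thc1Δ cells and 12.3, 12.2 and 11.3 CPM in bmc1Δ cells (0.51 ± 0.084, adjusted p = 0.0144). U4, the partner of U6 in the tri-snRNP, had 63.8, 58.5 and 62.9 CPM in thc1Δ cells and 42.4, 48.6 and 45.2 CPM in bmc1Δ cells (0.44 ± 0.062, adjusted p = 0.00901). None of the 3 sets of libraries overlapped, and 3 of the 6 snRNAs tested passed upward and 0 downward, where 4.7% of all genes tested passed upward. U2 had a log2 fold change of 0.14 (adjusted p = 0.303), and U5 had under 1 CPM in every library. Summed over the 6 snRNAs, levels were 555, 486 and 580 CPM in thc1Δ libraries, against 451, 501 and 452 CPM in bmc1Δ libraries. In this sum the groups overlapped. Without thc1Δ replicate 3 none of the 6 snRNAs passed, and their median log2 fold change was then 0.44, against 0.47 with all libraries. Between the wild types U6 and U1 did not pass (log2 difference -0.13 and -0.19, h- over h+), U4 was lower in the h- wild type (-0.23, adjusted p = 0.042), and for all 3 the deletion contrast differed from the wild-type contrast (adjusted p = 0.0133 for U6, 0.00699 for U1 and 0.00344 for U4).

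Of 42 small nucleolar RNAs tested, which guide the modification of ribosomal RNA, 7 passed upward and 0 downward, where 4.7% of all genes tested passed upward. The log2 fold change was above 0 for 34 of the 42, the thc1Δ libraries lay above all bmc1Δ libraries for 18 and below them for 0, and the median log2 fold change was 0.30. Over all genes tested, thc1Δ libraries lay above for 19.3% and below for 20.1%. The summed level of the 67 snoRNAs listed was 4603, 4369 and 5289 CPM in thc1Δ libraries, against 4093, 4530 and 4244 CPM in bmc1Δ libraries. In this sum the groups overlapped. The guide RNA sno12 had 577, 535 and 612 CPM in thc1Δ cells, against 410, 447 and 391 CPM in bmc1Δ cells (log2 fold change 0.47 ± 0.073, adjusted p = 0.0121), and snoR69b had 11.9, 10.1 and 11.4 CPM in thc1Δ cells, against 4.68, 6.98 and 6.07 CPM in bmc1Δ cells (0.91 ± 0.15, adjusted p = 0.0144). The box H/ACA RNA snR92 was the only snoRNA past the 2-fold limit (1.07 ± 0.22, adjusted p = 0.0301), at 6.41, 5.45 and 6.10 CPM in thc1Δ cells and 4.01, 2.32 and 2.23 CPM in bmc1Δ cells. This call was lost without any library other than bmc1Δ replicate 1. The number that passed fell to 2, 3 and 0 without thc1Δ replicates 1, 2 and 3, and to 4, 4 and 5 without bmc1Δ replicates 1, 2 and 3, while the median kept its sign in each of these fits (0.23 to 0.36). With the first replicate of both strains left out, 9 passed upward and the median was 0.15. In the wild types the median was -0.13 (h- over h+), and 9 snoRNAs had a deletion contrast above the wild-type contrast and 0 one below it.

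The genes for the proteins of the cytosolic ribosome shifted together by a small amount. For all 131 tested, the 3 thc1Δ libraries lay above the 3 bmc1Δ libraries, where 19.3% of all genes tested did. The log2 fold changes were 0.12 to 0.63 with a median of 0.28. An adjusted p of 0.05 was passed by 59, none of them past the 2-fold limit, where 4.7% of all genes tested passed upward. The summed level was 134137, 127257 and 130165 CPM in thc1Δ libraries, against 98065, 111576 and 114720 CPM in bmc1Δ libraries, lowest in bmc1Δ replicate 1. The largest difference was that of rps1401, a small-subunit protein gene, with 242, 200 and 214 CPM in thc1Δ cells and 112, 155 and 157 CPM in bmc1Δ cells (0.63 ± 0.14, adjusted p = 0.0319). Many of these genes have near-identical copies, between which reads may have been split. The number that passed depended on single libraries: it was 6, 3 and 0 without thc1Δ replicates 1, 2 and 3, and 47, 4 and 14 without bmc1Δ replicates 1, 2 and 3, while all 131 stayed above 0 in each fit. With both first replicates left out, 97 passed and the median was 0.19. The wild types differed in the same direction: 62 of the 131 passed upward in the h- wild type, with a median of 0.18. Of 4998 protein-coding genes tested between the wild types, 827 passed upward. For 2 of the 131 the deletion contrast was above the wild-type contrast with an adjusted p below 0.05.

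**Figure D2:**
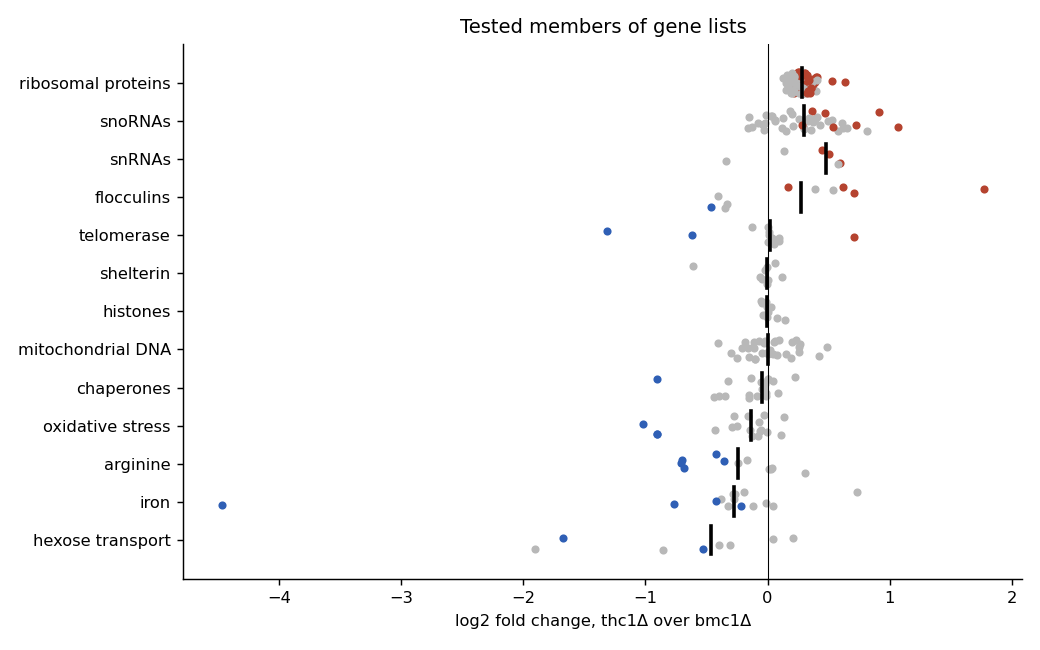
Log2 fold change, thc1Δ over bmc1Δ, of every tested member of the gene lists named at the left. Each point is a gene, coloured red or blue where it was higher or lower in thc1Δ with an adjusted p below 0.05 and grey otherwise, and black bars are list medians (0.28 for ribosomal proteins, 0.30 for snoRNAs, 0.47 for snRNAs).

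Across all genes, 72 of 6232 were called (1.16%), of which 24 were higher in thc1Δ cells (0.385%) and 48 lower (0.77%). Without the limit on fold, 661 passed an adjusted p of 0.05 (10.6%), 293 higher (4.7%) and 368 lower (5.91%). The called genes comprised 35 protein-coding genes (7 higher, 28 lower), 34 long non-coding RNAs (16 higher, 18 lower), 2 pseudogenes (both lower) and 1 snoRNA. The 6 libraries did not overlap by group for any of the 72, which was the case for 39.4% of all genes tested. In 33 of the 72 both group means were under 10 CPM. The count fell to 46 without thc1Δ replicate 2 and to 29 without thc1Δ replicate 3, and was 55 to 88 without any other single library. With the first replicate of both strains left out it was 72, of which 52 were among the original 72. In all 6 fits that leave out 1 library, 23 genes stayed called, 7 higher and 16 lower.

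**Figure D3:**
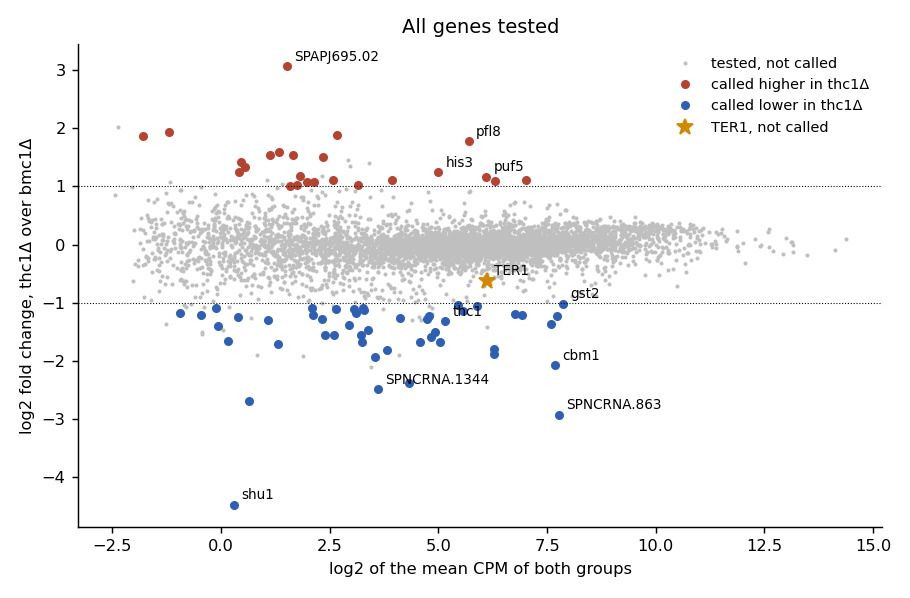
Log2 fold change, thc1Δ over bmc1Δ, against the log2 of the mean CPM, for 6232 genes tested. Red and blue points are the 24 genes called higher and the 48 called lower in thc1Δ, grey points were not called, the star is TER1, and dotted lines mark the 2-fold limit. More of the called genes lie below 0 than above it.

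Of the 5 genes called higher in thc1Δ cells with the most counts, pfl8 had the largest difference. It encodes a cell surface glycoprotein of the flocculin list, the adhesins by which yeast cells stick together, and had 112, 61.9 and 66.4 CPM in thc1Δ cells, against 20.3, 26.6 and 23.3 CPM in bmc1Δ cells (log2 fold change 1.78 ± 0.23, edgeR adjusted p = 0.00697). The first thc1Δ library was the highest, and all 3 lay above the bmc1Δ libraries. The gene puf5, which encodes an RNA-binding protein of the pumilio family, had 86.6, 89.8 and 108 CPM in thc1Δ cells and 33.1, 46.3 and 47.3 CPM in bmc1Δ cells (1.17 ± 0.14, adjusted p = 0.00589). The spermidine family transporter gene mfs3 had 161, 199 and 171 CPM in thc1Δ cells and 86.1, 79.3 and 80.9 CPM in bmc1Δ cells (1.11 ± 0.081, adjusted p = 8e-04), and the 5-oxoprolinase gene SPAC11D3.15 had 113, 105 and 103 CPM in thc1Δ cells and 44.8, 50.6 and 55.2 CPM in bmc1Δ cells (1.09 ± 0.079, adjusted p = 8e-04).

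The largest relative rise belonged to SPAPJ695.02 of the left end of chromosome I, an uncharacterized protein gene. It had 5.00, 4.05 and 6.23 CPM in thc1Δ cells, against 0.334, 0.624 and 0.855 CPM in bmc1Δ cells (log2 fold change 3.07 ± 0.30, adjusted p = 0.00237). Between the wild types its log2 difference was 2.31 (h- over h+), from which the deletion contrast did not differ (edgeR adjusted p = 0.32). The non-coding RNA SPNCRNA.780 had 11.9, 8.69 and 9.37 CPM in thc1Δ cells and 1.34, 3.42 and 3.39 CPM in bmc1Δ cells (1.88 ± 0.31, adjusted p = 0.0144), a call lost without thc1Δ replicate 3. Its log2 difference between the wild types was 2.06 (h- over h+), and the deletion contrast did not pass against it (edgeR adjusted p = 0.856). The other genes with the largest rises, SPNCRNA.1674, SPAC977.18, SPNCRNA.1557, SPNCRNA.613, SPNCRNA.877, SPNCRNA.611 and SPNCRNA.287, had log2 fold changes of 1.42 to 1.93. All 7 had under 10 CPM in every library, and SPAC977.18 rested on 15, 13 and 21 counts in thc1Δ cells and 6, 5 and 2 counts in bmc1Δ cells. Of these 7, all lost the call without thc1Δ replicate 3, which SPNCRNA.611 lost in that fit only. Between the wild types (h- over h+) the log2 differences were 2.27 for SPNCRNA.613, 2.09 for SPNCRNA.611 and 1.73 for SPNCRNA.1674. They were 0.30 for SPAC977.18, 0.41 for SPNCRNA.1557, 0.27 for SPNCRNA.877 and -1.11 for SPNCRNA.287. Of the 7, SPNCRNA.287 alone had a deletion contrast that passed against the wild-type contrast (edgeR adjusted p = 0.00517).

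The non-coding RNA SPNCRNA.863 and its neighbour cbm1 were both among the 10 genes with the largest fall in thc1Δ cells. SPNCRNA.863 had 57.7, 50.1 and 45.8 CPM in thc1Δ cells, against 504, 434 and 227 CPM in bmc1Δ cells (log2 fold change -2.92 ± 0.28, edgeR adjusted p = 0.00228). The gene cbm1, for a protein with a cellulose-binding domain, had 79.1, 85.1 and 70.8 CPM in thc1Δ cells, against 412, 380 and 199 CPM in bmc1Δ cells (-2.08 ± 0.25, adjusted p = 0.00589). In both the third bmc1Δ library was the lowest of its group and still more than 2-fold above every thc1Δ library. SPNCRNA.861, which lies between them, was lower too (-1.47 ± 0.28, adjusted p = 0.024). It had 6.27, 5.00 and 5.21 CPM in thc1Δ cells and 19.0, 18.1 and 8.68 CPM in bmc1Δ cells. It lost the call without any of thc1Δ replicates 2 and 3 and bmc1Δ replicates 1 and 2. The wild types (h- over h+) had log2 differences of -1.14 for SPNCRNA.863 and -1.29 for SPNCRNA.861 (edgeR adjusted p = 0.0362 and 0.018). The cbm1 gene was lower in the h- wild type too (edgeR adjusted p = 0.00325). For SPNCRNA.863, SPNCRNA.861 and cbm1 the deletion contrast did not pass against the wild-type contrast (edgeR adjusted p = 0.0517, 0.856 and 0.414).

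A second cluster on chromosome II fell together: SPNCRNA.1344 with 3.12, 4.72 and 3.22 CPM in thc1Δ cells and 24.9, 17.2 and 19.9 CPM in bmc1Δ cells (log2 fold change -2.49 ± 0.20, adjusted p = 0.000967), the uncharacterized gene SPBC1271.08c with 15.1, 16.2 and 16.1 CPM in thc1Δ cells and 52.9, 39.9 and 40.8 CPM in bmc1Δ cells (adjusted p = 0.000827), and the N-acetyltransferase gene SPBC1271.07c. The last had 26.7, 39.0 and 33.9 CPM in thc1Δ cells, against 141, 117 and 108 CPM in bmc1Δ cells (-1.88 ± 0.15, adjusted p = 0.000967). All 3 kept the call without any single library. SPNCRNA.1344 lies opposite SPBC1271.08c, and reads of the pair may have been mixed. In annotated gene order, 22 of the 72 called genes lay within 2 places of another called gene, in 10 groups of 2 or 3, and 8 of the 10 groups moved in 1 direction. The 2 groups of mixed direction were puf5 with SPNCRNA.679 (log2 fold change -1.55) next to it, and SPAC11D3.15 with SPNCRNA.610.

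Other single genes were called lower in thc1Δ cells. The methyltransferase gene SPCC70.08c had 390, 431 and 411 counts in thc1Δ cells and 1421, 1196 and 1243 counts in bmc1Δ cells (log2 fold change -1.67 ± 0.076, edgeR adjusted p = 8.13e-05), with little spread in either strain. The phenazine biosynthesis family gene aes1 had 29.1, 37.6 and 37.1 CPM in thc1Δ cells and 151, 101 and 108 CPM in bmc1Δ cells (-1.79 ± 0.17, adjusted p = 0.00226), and the oxidoreductase gene SPAC26H5.09c had 90.8, 120 and 114 CPM in thc1Δ cells and 323, 247 and 265 CPM in bmc1Δ cells (-1.36 ± 0.13, adjusted p = 0.00228). The glycoprotein gene SPBPJ4664.02 had 106, 147 and 131 CPM in thc1Δ cells and 356, 283 and 259 CPM in bmc1Δ cells (-1.23 ± 0.15, adjusted p = 0.00589). Its log2 difference between the wild types was -1.21 (h- over h+), and the deletion contrast did not pass against it (edgeR adjusted p = 0.976). The transposon copy Tf2-11 had 5.78, 6.15 and 6.85 CPM in thc1Δ cells and 29.1, 19.0 and 18.0 CPM in bmc1Δ cells (-1.82 ± 0.19, adjusted p = 0.00334). Tf2 copies are near-identical, 9 of the 13 listed had too few counts to test, and reads may have been split among them, so that the value of Tf2-11 is uncertain. The glutathione S-transferase gene gst2 had 159, 149 and 152 CPM in thc1Δ cells and 284, 361 and 288 CPM in bmc1Δ cells (-1.02 ± 0.095, adjusted p = 0.00226), close to the 2-fold limit, which it no longer reached without thc1Δ replicate 2 or bmc1Δ replicate 2.

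Calls with large but uneven differences were those of shu1, SPCC1739.08c, mug14, ght1 and SPNCRNA.1255. The heme acquisition gene shu1 had 3, 4 and 4 counts in thc1Δ libraries, against 86, 137 and 22 counts in bmc1Δ libraries, a fitted log2 fold change of -4.47 ± 0.84 (edgeR adjusted p = 0.0224) that rests on very few reads and lost the call without any 1 thc1Δ library. The dehydrogenase gene SPCC1739.08c had 3.96, 7.82 and 7.47 CPM in thc1Δ cells, against 64.5, 17.6 and 18.4 CPM in bmc1Δ cells (-2.38 ± 0.55, adjusted p = 0.038). The actin cytoskeleton gene mug14 had 4.16, 5.31 and 4.97 CPM in thc1Δ cells, against 30.3, 13.3 and 11.7 CPM in bmc1Δ cells (-1.94 ± 0.36, adjusted p = 0.0222). SPNCRNA.1255 had 11, 15 and 19 counts in thc1Δ libraries, against 149, 81 and 58 counts in bmc1Δ libraries (-2.69 ± 0.41, adjusted p = 0.0114). In SPCC1739.08c, mug14, ght1 and SPNCRNA.1255 the first bmc1Δ library was the highest of its group. SPCC1739.08c and mug14 lost the call without any 1 thc1Δ library, and SPNCRNA.1255 without thc1Δ replicate 3. The wild types (h- over h+) had log2 differences of -3.18 for SPCC1739.08c, -1.87 for mug14 and -1.06 for SPNCRNA.1255. The shu1 gene was lower in the h- wild type too (edgeR adjusted p = 0.0119). For SPCC1739.08c, mug14, SPNCRNA.1255 and shu1 the deletion contrast did not pass against the wild-type contrast (edgeR adjusted p = 0.533, 0.953, 0.0573 and 0.545).

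The stress and carbon genes showed where the first replicates differed. The chaperone gene hsp104, which encodes a disaggregase, had 102, 345 and 328 CPM in thc1Δ cells, against 328, 331 and 325 CPM in bmc1Δ cells, so that thc1Δ replicate 1 was the only library apart. The Hsp70 gene ssa1 followed the same order, with 42.4, 108 and 106 CPM in thc1Δ cells and 126, 112 and 109 CPM in bmc1Δ cells. Neither gene passed (adjusted p = 0.581 and 0.367), and of 20 genes of the heat shock and chaperone list, hsp3102 was the only one that did (log2 fold change -0.90 ± 0.14, adjusted p = 0.0127). The glucose transporter gene ght1 had 13.6, 14.8 and 18.5 CPM in thc1Δ cells, against 87.7, 34.0 and 27.9 CPM in bmc1Δ cells (-1.67 ± 0.42, adjusted p = 0.0456), and the invertase gene inv1 had 5.84, 6.90 and 8.86 CPM in thc1Δ cells, against 52.9, 16.3 and 10.9 CPM in bmc1Δ cells (adjusted p = 0.0683). Both genes are repressed by glucose, and bmc1Δ replicate 1 was the highest library for both. Between the wild types ght1 had a log2 difference of -2.39 (h- over h+, edgeR adjusted p = 0.000959). Its deletion contrast did not pass against this wild-type contrast (edgeR adjusted p = 0.413). Without bmc1Δ replicate 1 the log2 fold change of ght1 was -0.98, under the 2-fold limit, and without bmc1Δ replicate 2 or any 1 thc1Δ library its adjusted p was above 0.05. Of the 8 hexose transporters, ght8 also passed, with 899, 876 and 867 CPM in thc1Δ cells and 1438, 1184 and 1179 CPM in bmc1Δ cells (-0.52 ± 0.086, adjusted p = 0.0138). Over all genes tested, 10.6% passed. Between the wild types (h- over h+) 5 of the 8 passed lower and 0 higher, with a median of -0.76, beside -0.46 between the deletions. For 2 the deletion contrast was above the wild-type contrast and for 0 below it.

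**Figure D4:**
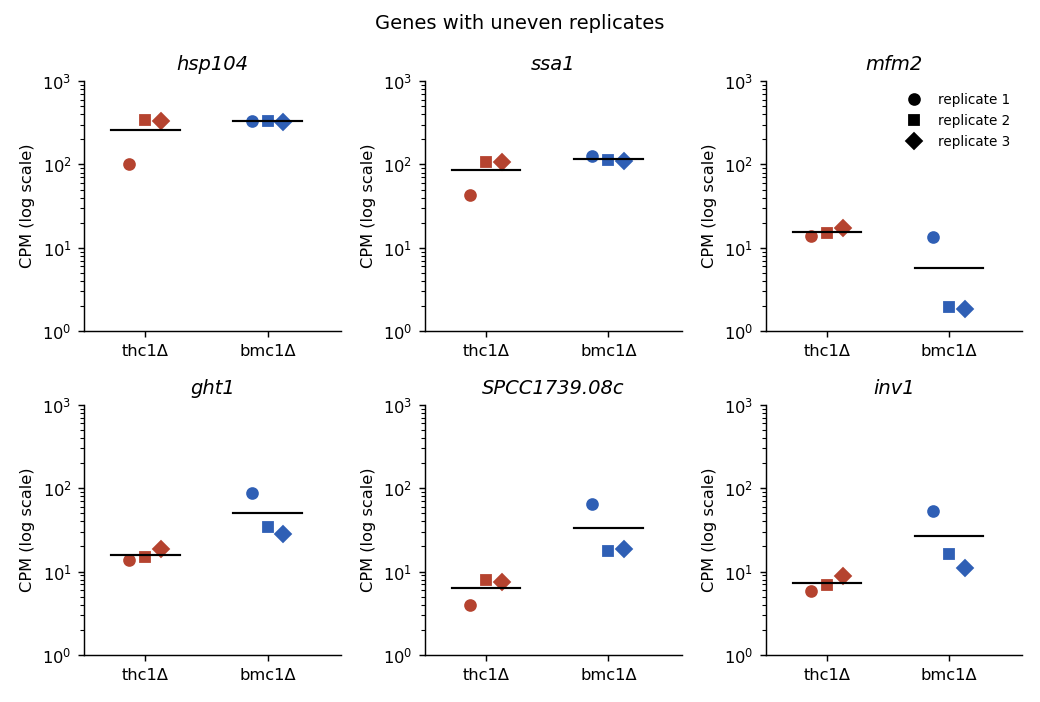
CPM of hsp104, ssa1, mfm2, ght1, SPCC1739.08c and inv1 by library on a log axis, thc1Δ left and bmc1Δ right, with lines at the group means. Circles are replicate 1, squares replicate 2 and diamonds replicate 3. thc1Δ replicate 1 is low in hsp104 and ssa1, and bmc1Δ replicate 1 is high in mfm2, ght1, SPCC1739.08c and inv1.

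Several genes of arginine synthesis were lower in thc1Δ cells by less than 2-fold. Of the 11 arginine genes 5 passed downward and 0 upward, where 5.91% of all genes tested passed downward, and the median was -0.25. The carbamoyl-phosphate synthase subunit gene arg4 had 1109, 1109 and 1032 CPM in thc1Δ cells, against 2028, 1635 and 1662 CPM in bmc1Δ cells (log2 fold change -0.71 ± 0.093, edgeR adjusted p = 0.00697). Its partner subunit gene arg5 had 294, 289 and 254 CPM in thc1Δ cells and 501, 416 and 440 CPM in bmc1Δ cells (-0.70 ± 0.087, adjusted p = 0.00607), and the argininosuccinate synthase gene arg12 had 364, 403 and 355 CPM in thc1Δ cells and 629, 567 and 605 CPM in bmc1Δ cells (-0.68 ± 0.068, adjusted p = 0.00274). The genes arg3 (-0.42) and arg1 (-0.36) passed too, and for none of the 5 did the groups overlap. The number was 4 or 5 without any single library. Of the 7 histidine genes 2 passed downward, his4 and his2 (-0.43 and -0.42, adjusted p = 0.00445 and 0.00686), and 1 upward, the marker his3. Of the 10 purine genes ade7 was the 1 that passed (-0.39, adjusted p = 0.00999), with a list median of -0.083. Over all genes tested, 10.6% passed in either direction, which the 1 of 10 purine genes was near. In the wild types 2 of the 11 arginine genes were higher in h- and 0 lower, and for 6 the deletion contrast was below the wild-type contrast.

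The pyruvate decarboxylase gene pdc201, of fermentation, was the 1 called gene of 20 in the glycolysis list, at 6.04, 6.37 and 6.07 CPM in thc1Δ cells and 18.6, 13.5 and 8.02 CPM in bmc1Δ cells (log2 fold change -1.12 ± 0.27, edgeR adjusted p = 0.0421), and kept the call only without bmc1Δ replicate 3.

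Metal and oxidative stress genes moved in smaller numbers. Of 14 iron genes 4 passed downward and 0 upward, where 5.91% of all genes tested passed downward: shu1, the ferric reductase gene frp1 (log2 fold change -0.77 ± 0.15, adjusted p = 0.0249), the transporter gene abc3 (-0.42 ± 0.084, adjusted p = 0.0267) and pcl1. The frp1 gene had 9.71, 8.07 and 8.06 CPM in thc1Δ cells and 17.6, 14.2 and 12.2 CPM in bmc1Δ cells. The number was 2, 0 and 0 without thc1Δ replicates 1, 2 and 3, and 3, 1 and 4 without bmc1Δ replicates 1, 2 and 3. Between the wild types (h- over h+) 7 of the 14 iron genes passed lower and 2 higher. Their median was -0.35 there, beside -0.27 between the deletions. For 3 iron genes the deletion contrast was above the wild-type contrast and for 1 below it. Of 8 copper genes tested 1 passed upward and 1 downward, where 10.6% of all genes tested passed in either direction. The gene ccc2, for a copper-transporting ATPase, was lower (-0.30 ± 0.064, adjusted p = 0.0319). The copper transporter gene ctr5 was higher, at 489, 515 and 453 CPM in thc1Δ cells and 340, 378 and 360 CPM in bmc1Δ cells (0.44 ± 0.067, adjusted p = 0.0119). In the wild types ctr5 was lower in h- than in h+ (-1.19, adjusted p = 2.42e-07), the opposite direction, and the difference between the contrasts was 1.62 (adjusted p = 6.43e-07). Of 18 oxidative stress genes 3 passed, all downward, where 5.91% of all genes tested did: gst2, the sulfiredoxin gene srx1 (-0.91 ± 0.22, adjusted p = 0.0419) and the transporter gene caf5 (-0.91 ± 0.20, adjusted p = 0.0341). None of 33 genes on mitochondrial DNA passed, and their share of counts was 4.67% ± 0.403 in thc1Δ libraries and 4.49% ± 0.158 in bmc1Δ libraries (SD, n = 3 each, exact two-sided permutation p = 0.6). Of 10 core histone genes none passed.

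Of 774 long non-coding RNAs tested with a coding gene opposite, 22 were called (2.84%), 11 higher and 11 lower in thc1Δ cells. Of 343 tested with none opposite 12 were called (3.5%), where 1.16% of all genes tested were called. Of the 22, 20 were paired with a coding gene, in 25 pairs. SPNCRNA.1344 and SPNCRNA.611 were not, because the names of their coding genes were not matched. In 8 of the 25 pairs the coding gene passed an adjusted p of 0.05 as well, where 10.6% of all genes tested passed. Of these 8, 5 moved in the opposite direction and 3 in the same direction. In 17 pairs the coding gene did not pass. Some coding genes and RNAs stand in more than 1 pair. The clearest opposite pair was SPNCRNA.610, with 3.27, 3.19 and 2.82 CPM in thc1Δ cells and 9.41, 9.06 and 8.88 CPM in bmc1Δ cells (log2 fold change -1.56 ± 0.10, adjusted p = 0.000529), opposite SPAC11D3.15, which was higher in thc1Δ cells. SPNCRNA.1626 had 61.9, 69.1 and 67.6 CPM in thc1Δ cells, against 155, 134 and 165 CPM in bmc1Δ cells (-1.19 ± 0.082, adjusted p = 0.000621). It lies opposite mbx2, a MADS-box transcription factor gene that promotes flocculation, which had 63.7, 55.4 and 60.5 CPM in thc1Δ cells and 36.6, 38.4 and 35.1 CPM in bmc1Δ cells (0.71 ± 0.063, adjusted p = 0.002). Of the 10 flocculation genes tested, pfl8, mbx2, pfl9 (0.62) and pfl4 passed upward and pfl2 (-0.47) downward, where 10.6% of all genes tested passed. SPNCRNA.875 was higher (1.18 ± 0.12, adjusted p = 0.00327) opposite the glycine cleavage gene gcv1, which was lower (-0.35, adjusted p = 0.0295). SPNCRNA.1121 and ght1, on opposite strands, were both lower. The sources used here do not say if strand entered the counting, and reads of a pair may have been mixed.

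The ends of chromosomes I and II, where genes are silenced by the telomere, did not move in 1 direction. Among the 40 genes at each end in the annotated order, 3 of 17 tested at the left end of chromosome I were called higher in thc1Δ cells (SPAPJ695.02, SPAC977.18 and SPNCRNA.601) and 0 lower, where 0.385% of all genes tested were called higher and 0.77% lower. SPAPJ695.02 alone of these 3 kept the call without any single library. At the left end of chromosome II, 1 of 23 was called higher (SPNCRNA.287) and 3 lower (aes1, SPBPB8B6.02c and SPBPB10D8.02c). At the right end of chromosome I, 1 of 20 was called lower, the isomerase gene SPAC186.06 with 2.83, 3.19 and 1.88 CPM in thc1Δ cells and 5.65, 5.56 and 6.98 CPM in bmc1Δ cells (log2 fold change -1.20 ± 0.20, edgeR adjusted p = 0.0144), and at the right end of chromosome II 0 of 23 were called. The median log2 fold changes of the 4 ends were -0.065, -0.59, -0.063 and -0.056, beside -0.0043 over all genes tested. Between the wild types (h- over h+) the medians of the same 4 ends were -0.24, -0.67, -0.026 and -0.032. At the left end of chromosome II 12 of 23 passed lower there and 0 higher. At this end the deletion contrast was above the wild-type contrast for 2 genes and below it for 2. SPNCRNA.601 had under 3 CPM in every library and lost the call without thc1Δ replicate 2, thc1Δ replicate 3 or bmc1Δ replicate 3. SPBPB8B6.02c, which lost the call without any 1 library, stood at 0.636, 0.615 and 1.10 CPM in thc1Δ cells and 1.61, 1.43 and 2.54 CPM in bmc1Δ cells (-1.24 ± 0.31, adjusted p = 0.0462). The arylsulfatase gene SPBPB10D8.02c had 37.3, 22.1 and 29.6 CPM in thc1Δ cells and 44.7, 76.5 and 75.2 CPM in bmc1Δ cells (-1.14 ± 0.24, adjusted p = 0.0313), and lost the call without replicate 2 or 3 of either strain. Of the 160 genes at the 4 ends, 77 had too few counts to test.

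At the 2 deleted loci the nearest genes differed. The gene next to thc1, tho3, which encodes a subunit of the THO complex of transcription and RNA export, had 67.4, 68.7 and 68.8 CPM in thc1Δ cells, against 36.3, 35.6 and 37.1 CPM in bmc1Δ cells (log2 fold change 0.91 ± 0.039, edgeR adjusted p = 8.13e-05). Its wild-type values were 36.1 to 39.7 CPM (h-) and 37.3 to 38.5 CPM (h+), so that the thc1Δ strain was the one apart. Of the 10 nearest protein-coding genes of thc1, dom34 also passed (0.22, adjusted p = 0.0468). Of 9 tested around bmc1, sec22 (-0.40), aly2 (-0.41), orc6 (-0.34) and ess1 (-0.30) were lower and iss9 (0.28) and plp2 (0.18) higher in thc1Δ cells. Their adjusted p ranged from 0.00315 to 0.0366. Over all genes tested, 10.6% passed. The SNARE protein gene sec22 had 62.3, 60.4 and 63.8 CPM in thc1Δ cells, against 80.7, 83.4 and 81.2 CPM in bmc1Δ cells, where the wild types had 56.4 to 62.7 CPM. The part of the marker cassettes in these values was not tested.

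The mating-type genes did not separate the strains by their labels. The P-factor and M-factor genes and receptors are the textbook markers of h+ and h- cells and are induced mainly when cells starve. The mat1-Mc, mat1-Mi, mat3-Mc and mat3-Mi genes had 0 counts in all 6 libraries, and mat1-Pc was not found in the table, so that mating type could not be read from the mating-type locus. Among 7 M-cell genes tested, mfm3 passed, on 16, 23 and 25 counts in thc1Δ cells against 52, 32 and 50 counts in bmc1Δ cells (log2 fold change -1.08 ± 0.24, edgeR adjusted p = 0.0341), and lost the call without any library other than bmc1Δ replicate 2. The M-factor gene mfm2 had 13.9, 15.2 and 17.2 CPM in thc1Δ cells, against 13.6, 1.93 and 1.85 CPM in bmc1Δ cells (1.41 ± 0.68, adjusted p = 0.205). The first bmc1Δ library was close to the thc1Δ libraries and the other two far below them, and 1 of the 3 h+ wild-type libraries (8.63 CPM, others 2.06 and 1.54 CPM) was likewise raised. The h- wild type had 20.6 to 22.8 CPM on mfm2, a log2 difference of 2.41 (h- over h+, edgeR adjusted p = 0.02). Between the wild types 2 M-cell genes passed higher in h- and 1 lower, and 1 P-cell gene passed higher and 2 lower. The other M-cell genes mam1, mam2, mam3, mam4 and sxa2 had log2 fold changes of -0.14 to 0.18, and the 5 P-cell genes map1, map2, map3, map4 and sxa1 -0.14 to 0.04, and none of these 10 passed. Summed over the list, M-cell genes had 213 to 228 CPM in thc1Δ libraries and 189 to 224 CPM in bmc1Δ libraries, and P-cell genes 481 to 527 CPM and 470 to 531 CPM. Of the meiosis markers, mei4, spo5 and the gene labelled mcp5 (num1) did not pass, and rec8 was lower in thc1Δ cells (-0.57 ± 0.12, adjusted p = 0.0289).

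Set against the wild types, part of the difference between the deletions was also a difference between the strains that carry no deletion. Between the h- and the h+ wild type 176 of 6279 genes were called (2.8%), 59 higher and 117 lower in h-. Of the 72 genes called between the deletions, 33 were called between the wild types in the same direction (10 higher, 23 lower), 1 in the opposite direction, and 25 had an adjusted p of 0.05 or more there. The test of the difference itself, the deletion contrast minus the wild-type contrast, passed for 25 of the 72. All 25 went in the direction of the call (7 higher, 18 lower). Over all 6279 genes the test passed for 655 (10.4%). The 72 were chosen by the deletion contrast, which is part of this difference. Their number and shared direction are therefore no independent support. In 14 of these 25 the call also held without any single library: his3, pfl8, puf5 and SPNCRNA.875 were higher in thc1Δ cells, and thc1, SPCC70.08c, aes1, SPNCRNA.1344, SPBC1271.07c, SPBC1271.08c, SPAC26H5.09c, SPAC186.06, SPNCRNA.1626 and Tf2-11 were lower. SPAC11D3.15 and mfs3 had wild-type differences of 1.27 and 1.24, close to their differences between the deletions. TER1 did not differ between the wild types, and its deletion contrast differed from theirs by -0.65 ± 0.073 (edgeR adjusted p = 0.00048).

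**Figure D5:**
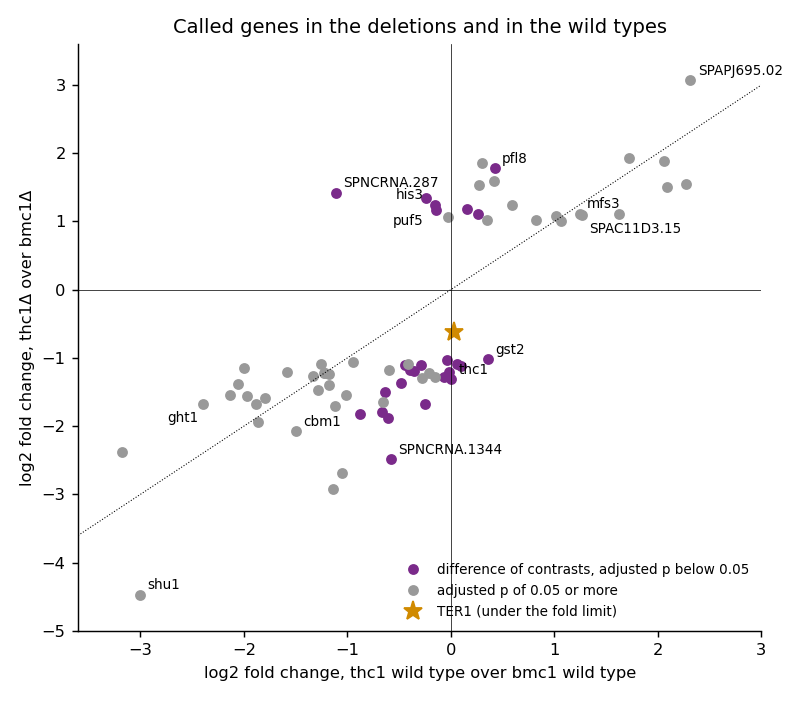
Log2 fold change of the 72 called genes between the deletions (vertical, thc1Δ over bmc1Δ) against that between the wild types (horizontal, thc1 wild type over bmc1 wild type). Purple points have a difference of contrasts with an adjusted p below 0.05 (25 genes), grey points do not, the star is TER1, and the dotted line marks equal values. Genes near the line differ alike in both pairs, and purple points lie off it.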

How the data were processed

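RNA of 12 fission yeast cultures was sequenced as single-end reads from stranded, ribosomal RNA-depleted libraries, and the 6 libraries of thc1Δ and bmc1Δ were compared here. The authors aligned the reads to ASM294v2 with STAR 2.5.2b and deposited whole-number counts of reads per gene, not normalized. The submitters' processing notes also name DESeq2 1.22.2. Counting tool, annotation release and strand setting were not given in the sources used here. The treatment of reads with multiple matches, which bears on near-identical genes, is unknown likewise. Groups came from the sample titles, genotypes and mating types from the strain table of the study.

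Names, biotypes and gene order came from the RefSeq annotation of ASM294v3 (6846 of 7004 genes matched by locus tag, 15 by synonym, 143 not matched). No coordinates or sequences are given, since that build is not the one counted on. The main test was edgeR 4.0.16 (glmQLFit and glmQLFTest, R 4.3.3) after TMM scaling, on genes kept by filterByExpr at a minimum count of 10. A call needed a Benjamini-Hochberg adjusted p below 0.05 and a log2 fold change of 1 or more in either direction, and the standard error is the log2 fold change over the square root of F. Between the wild types, and for the difference of contrasts, 1 fit over all 12 libraries was used, whose wild-type CPM are scaled over those 12. At 33565122 to 37231236 counts per deletion library, the spread between cultures exceeded counting error in every pair of replicates.

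The members and gene lists were chosen with earlier results of these data known. Genes were named by rule: TER1, the deleted and marker genes, ura4, ade6, leu1, pof8, trt1, lsm4, smb1 and U6; by log2 fold change, the top 10 called genes upward and the top 10 downward among those with non-overlapping libraries; the 5 most abundant called in each direction; called members of the lists (at most 4 each); mating genes; and neighbours of the deleted genes with an adjusted p below 0.05. Other genes of the text, the gene pairs and the groups of neighbours were named after their values were seen. Alternatives were DESeq2 1.42.0, limma 3.58.1 (voom), RLE scaling, library totals, other filters, a fit over 12 libraries, the replicate number as a block, a test against a fold of 1.5, and leaving out each library. The scripts were tested on simulated data. Plots used matplotlib 3.10.9 and Python 3.11.15.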

Additional observations from a re-analysis of the deposited data

Results flagged for a closer look

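For 26 of the 64 genes chosen by rule, the difference between the deletions was not the difference between the wild types: the deletion contrast (thc1Δ over bmc1Δ) minus the wild-type contrast (h- over h+) passed an adjusted p of 0.05 in edgeR's fit over all 12 libraries. The values that follow are these differences on the log2 scale. Of the telomerase and marker genes, the difference was -0.65 for TER1, -1.32 for thc1, 0.64 for bmc1, 1.40 for his3 and -0.29 for leu1, and it was 0.72 for U6 (snu6). Beside the deleted genes it was 0.91 for tho3, -0.34 for sec22, -0.45 for orc6, -0.39 for ess1 and -0.23 for aly2. Among called genes it was 2.53 for SPNCRNA.287, 1.58 for SPNCRNA.601, 1.35 for pfl8 and 1.31 for puf5 in the upward direction. In the downward direction it was -1.91 for SPNCRNA.1344, -1.38 for gst2, -1.27 for SPBC1271.07c, -1.21 for pdc201, -1.19 for SPAC186.06, -1.14 for mfm3, -1.12 for aes1, -0.93 for Tf2-11 and -0.88 for SPAC26H5.09c. Among the mating genes it was -0.69 for map1 and -0.27 for mam4, neither of which passed between the deletions. Of the called genes, 2 passed in the opposite direction between the wild types (h- over h+): SPNCRNA.287 at -1.11 (adjusted p = 0.0355) and gst2 at 0.36 (adjusted p = 0.0365). Groups of 3 libraries were not screened for single outlying values.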

How the results depend on the processing

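TER1 kept its direction and an adjusted p below 0.05 in all 16 alternatives. Of 72 called genes, DESeq2 called 82 (71 shared), limma-voom 61 (60 shared), RLE scaling 72 and library totals 76 (69 shared). The count moved beyond 1.5 times to 20 when tested against a fold of 1.5 and to 661 with no limit on the fold. Leaving out 1 library gave 29 to 88 calls (29 without thc1Δ replicate 3, 46 without thc1Δ replicate 2). With a replicate block the calls numbered 31 (30 shared), and 0 of the 131 ribosomal protein genes, 0 of the 42 snoRNAs and 0 of the 6 snRNAs passed. The number does not pair the cultures: same-numbered libraries had correlations of deviations of -0.323, -0.227 and -0.231 over 4908 genes, and none correlated best with its own number. For the difference of contrasts (655 genes), the count was 582 with the replicate block, 851 in DESeq2 and 328 to 917 without 1 library. It fell beyond 1.5 times without bmc1Δ replicate 3 (386), without h- wild-type replicates 1 (333), 2 (328) or 3 (419) and without h+ wild-type replicate 2 (329). The difference in mitochondrial share, 0.177 percentage points, was 0.0572 to 0.409 without 1 library.

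Of 1625 values of 102 named genes under an alternative, 1385 kept their direction and side of the threshold, 209 lost an adjusted p below 0.05, 10 gained one and 21, of 9 genes with no call, changed sign. With library totals the log2 fold changes of lsm4, sxa2 and sxa1 turned to -0.025, -0.023 and -0.0050. Without 1 library they ranged from -0.026 to 0.069 for lsm4, -0.024 to 0.042 for sxa2, -0.0088 to 0.078 for sxa1, -0.26 to 0.056 for mam2, -0.13 to 0.056 for map1, -0.15 to 0.12 for map4, -0.17 to 0.18 for map2 and -0.61 to 0.036 for hsp104. Without both first replicates, an alternative chosen after seeing the data, mam3, map1, map4, map2 and hsp104 turned to 0.033, 0.13, 0.15, -0.24 and 0.037. The cause was not tested. What depth limits was not tested.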

Other observations

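Other lists, whose genes were named after their values were seen, held few that passed an adjusted p of 0.05, where 10.6% of all genes tested did. Of the glucose repression list 2 of 17 passed (11.8%) and of the sexual differentiation list 2 of 19 (10.5%), both near that share, so that the genes named are single genes and no result about the lists. In the glucose repression list, fbp1, the fructose-1,6-bisphosphatase gene of gluconeogenesis, was lower in thc1Δ cells, with 4.88, 6.45 and 5.75 CPM in thc1Δ cells and 15.4, 9.81 and 8.68 CPM in bmc1Δ cells (log2 fold change -0.99 ± 0.22, edgeR adjusted p = 0.0357), and mbx2 was the 1 higher. The hexokinase gene hxk2 was higher (0.25 ± 0.054, adjusted p = 0.0323). In the sexual differentiation list, pat1, the kinase that holds back meiosis, was lower (-0.43 ± 0.11, adjusted p = 0.0484) and rgs1, a regulator of G-protein signalling, higher (0.35 ± 0.061, adjusted p = 0.0185). Of 12 meiotic transcripts that Mmi1 removes, rec8 and mug8 were lower (-0.57 and -0.49) and 0 higher. Of 6 phosphate genes tested, the phosphatase gene pho2 was lower (-0.40 ± 0.071, adjusted p = 0.0198), and at the right end of chromosome II prt2, the non-coding RNA that represses pho84, was higher, with 42.1, 31.0 and 32.5 CPM in thc1Δ cells and 18.9, 20.9 and 22.7 CPM in bmc1Δ cells (0.76 ± 0.13, adjusted p = 0.015). None of the 4 trehalose genes passed.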
